A study of Mus musculus with 12 samples.

Results

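Chemokine receptor genes were examined in hematopoietic stem and progenitor cells (HSPCs) of mice in which *Rad21*, a subunit of cohesin, had been knocked down. The genes were *Ccr1*, *Ccr2*, *Ccr7*, *Ccr9*, *Cxcr2*, *Cxcr3*, *Cxcr4*, *Cx3cr1*, and *Ccrl2*, which were chosen by name and found through their Ensembl identifiers. They make up 9 of the 46078 genes counted by RNA-seq. The 12 libraries fell into 4 groups of 3, all from cells of the C57BL/6 strain. For the culture groups, LSK cells (lineage-negative, Sca-1+, c-Kit+) were infected with a lentivirus that carried an shRNA against luciferase (shLuci, the control) or against *Rad21* (shRad21). They were kept in culture for 3 d and sorted as GFP+CD48-Sca-1+ cells. For the in vivo groups, LSK cells infected with shLuci or shRad21 were transplanted into lethally irradiated mice, and GFP+ LSK cells were sorted 3 mo later by the labels. The methods of the study name a later time for these mice. Every group, controls included, had thus been infected with a lentivirus, and which of the *Rad21* shRNAs was used is not given in the sources used here. It is also not stated whether the libraries of a group came from separate cultures or animals, so p-values measure only the spread between these libraries.

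Chemokines are small secreted proteins that direct the movement of cells, and their receptors are membrane proteins that signal through G proteins of the Gi class. In bone marrow, Cxcr4 binds Cxcl12 from stromal cells and holds HSPCs in their niche. Ccr7 and Ccr9 help lymphoid progenitors to reach the thymus, whereas Ccr1, Ccr2, Cxcr2, and Cx3cr1 are best known from monocytes, neutrophils, and other myeloid cells. Cxcr3 guides activated T cells and NK cells, and Ccrl2 is an atypical receptor that binds chemerin without G protein signaling.

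Of the 9 genes, 5 lie on chromosome 9 of GRCm38. *Ccr1* (ENSMUSG00000025804, chr9:123962124-123968692, minus strand), *Ccr2* (ENSMUSG00000049103, chr9:124101950-124113557, plus strand), and *Ccr9* (ENSMUSG00000029530, chr9:123678439-123784330, plus strand) belong to a cluster of receptor genes. The start of *Ccr1* is 133258 bases from that of *Ccr2* and 290253 bases from that of *Ccr9*. *Cx3cr1* (ENSMUSG00000052336, chr9:119901616-120069879, minus strand) and *Ccrl2* (ENSMUSG00000043953, chr9:111054486-111057519, minus strand) lie on the same chromosome outside this cluster. *Cxcr2* (ENSMUSG00000026180, chr1:74153989-74161246, plus strand) and *Cxcr4* (ENSMUSG00000045382, chr1:128588199-128592293, minus strand) are on chromosome 1, *Ccr7* (ENSMUSG00000037944, chr11:99144196-99155077, minus strand) is on chromosome 11, and *Cxcr3* (ENSMUSG00000050232, chrX:101731535-101734269, minus strand) is on the X chromosome. Of the exonic bases of *Ccr9*, 21.5% are shared with *Slc6a20a*, *Gm17200*, and AC165425.1, and of those of *Cx3cr1*, 1.73% with *Gm33858*. The strand setting of the counting is not given in the sources used here, so reads from these overlaps cannot be told apart.

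The promoters of 5 genes are shown because their genes moved differently with the knockdown. *Ccr1* and *Cx3cr1* had the largest falls in culture, *Ccr9* rose there, *Cxcr4* fell in both experiments, and *Ccrl2* had fold changes of opposite sign in the 2 experiments, of which that in vivo did not pass the test. The sequences are from RefSeq on GRCm38.p6 and hold the 250 bases before a RefSeq start, 5′ to 3′ on the strand of the gene. For *Ccr9* and *Cx3cr1*, this start lies inside the span of the gene given above, which is that of GENCODE. Capitals mark matches on either strand to RUNX (TGTGGT) or ETS (GAGGAA) motifs or to the NF-κB motif.
Ccr1, chr9:123968693-123968942, minus strand: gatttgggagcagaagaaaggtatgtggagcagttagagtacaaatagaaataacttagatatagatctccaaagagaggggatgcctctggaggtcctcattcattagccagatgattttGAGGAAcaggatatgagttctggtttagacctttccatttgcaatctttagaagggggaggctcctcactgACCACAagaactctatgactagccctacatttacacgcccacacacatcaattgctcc
Cx3cr1, chr9:120068297-120068546, minus strand: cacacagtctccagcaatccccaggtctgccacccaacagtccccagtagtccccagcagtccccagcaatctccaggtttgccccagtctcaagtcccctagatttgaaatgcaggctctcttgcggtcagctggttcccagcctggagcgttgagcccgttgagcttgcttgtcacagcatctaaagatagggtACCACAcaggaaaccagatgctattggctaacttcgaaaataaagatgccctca
Ccr9, chr9:123766961-123767210, plus strand: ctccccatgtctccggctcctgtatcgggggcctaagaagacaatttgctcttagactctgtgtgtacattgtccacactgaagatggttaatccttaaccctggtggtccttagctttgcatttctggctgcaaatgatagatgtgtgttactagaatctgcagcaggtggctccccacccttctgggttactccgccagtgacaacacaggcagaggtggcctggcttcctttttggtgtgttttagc
Cxcr4, chr1:128592300-128592549, minus strand: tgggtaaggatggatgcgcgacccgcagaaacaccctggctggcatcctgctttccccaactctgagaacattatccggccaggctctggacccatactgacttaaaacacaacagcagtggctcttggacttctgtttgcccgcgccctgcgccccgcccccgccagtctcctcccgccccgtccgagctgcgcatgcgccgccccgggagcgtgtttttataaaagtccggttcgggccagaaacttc
Ccrl2, chr9:111057519-111057768, minus strand: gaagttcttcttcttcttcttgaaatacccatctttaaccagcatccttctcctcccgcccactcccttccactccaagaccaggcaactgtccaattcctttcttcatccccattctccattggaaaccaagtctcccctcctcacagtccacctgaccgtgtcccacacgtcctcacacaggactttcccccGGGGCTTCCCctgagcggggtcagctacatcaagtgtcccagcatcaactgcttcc

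Motifs were searched in the RefSeq windows from 250 bases before to 50 bases after each start, which were given for 8 of the 9 genes, all but *Ccr7*, and 3 times for *Ccrl2*. The motifs were chosen after the expression values were known, and a match describes letters, not binding. In *Ccr1*, an ETS match began at -129 and a RUNX match at -58 from the start, and in *Cx3cr1* a RUNX match began at -54. *Cxcr3* held RUNX matches at -110 and 12 and an ETS match at -14, and *Cxcr2* held ETS matches at -81 and 7. An NF-κB match was found in 1 window of *Ccrl2*, at -56. A GATA motif (AGATAA) was found in *Ccr2*, at -97, and in the other windows of *Ccrl2*. The windows of *Ccr9* and *Cxcr4* held no match to these motifs or to AP-1 (TGANTCA), which was found in none of the 8 genes. Of all 32851 promoter windows of this length, 16.8% held the RUNX motif, 28.3% ETS, 4.51% NF-κB, 7.81% AP-1, and 11.2% GATA. The GC content of the sequences shown was lowest in *Ccr1* (43.6%) and highest in *Cxcr4* (61.2%).

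The total count on genes ranged from 15235129 to 29846689 among the libraries, and 3 counts were worth 0.107 to 0.21 CPM (counts relative to the library total, scaled with edgeR's TMM factors over the 12 libraries), a limit that covers counting error only. *Rad21* itself lay between 383 and 418 CPM in shLuci and between 128 and 154 CPM in shRad21 libraries in culture, and between 118 and 124 CPM and between 43.4 and 47.6 CPM, respectively, in vivo, so each library matched its label. Each of 9 stem and progenitor markers (*Kit*, *Ly6a*, *Cd34*, and others) was detected in every group, with summed levels between 2640 and 4160 CPM. The experiments differed in sort gate, library kit (TruSeq RNA v2 in culture, SMART-Seq v4 with Nextera XT in vivo), and sequencing lane, so these cannot be told apart from the setting of the cells.

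*Cxcr4* was the most abundant of the 9 receptors in all 4 groups, followed by *Ccrl2*, when levels were compared per exonic length as RPKM (CPM divided by the exonic length in kilobases). In shLuci cells, *Cxcr4* was at 34.3 ± 2.25 RPKM (SD, n = 3) in culture and 23.8 ± 3.55 RPKM (SD, n = 3) in vivo, and *Ccrl2* at 8.32 ± 0.633 and 6.09 ± 1.07 RPKM (SD, n = 3). The order below them depended on the setting. In culture, *Cx3cr1* came next with 4.48 ± 0.429 RPKM (SD, n = 3), clear of *Ccr7* at 0.971 RPKM. *Ccr7*, *Cxcr3*, *Ccr1*, *Cxcr2*, and *Ccr2* followed between 0.971 and 0.279 RPKM, and each overlapped with the next. *Ccr9* was the lowest at 0.0900 RPKM. In vivo, *Ccr7* came next with 3.77 ± 0.798 RPKM (SD, n = 3), and *Ccr2* (1.88), *Cxcr2* (1.36), *Ccr9* (1.32), *Cxcr3* (1.004), *Cx3cr1* (0.618), and *Ccr1* (0.523 RPKM) formed a series in which neighbors overlapped. This order depends on the annotated exonic lengths, which were 10260 bases for *Ccr9* and 1978 for *Ccr7*. By CPM, *Ccr9* (8.05, 18.4, and 14.3) was above *Ccr7* (6.05, 9.16, and 7.16) in each shLuci library in vivo.

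**Figure D1:**
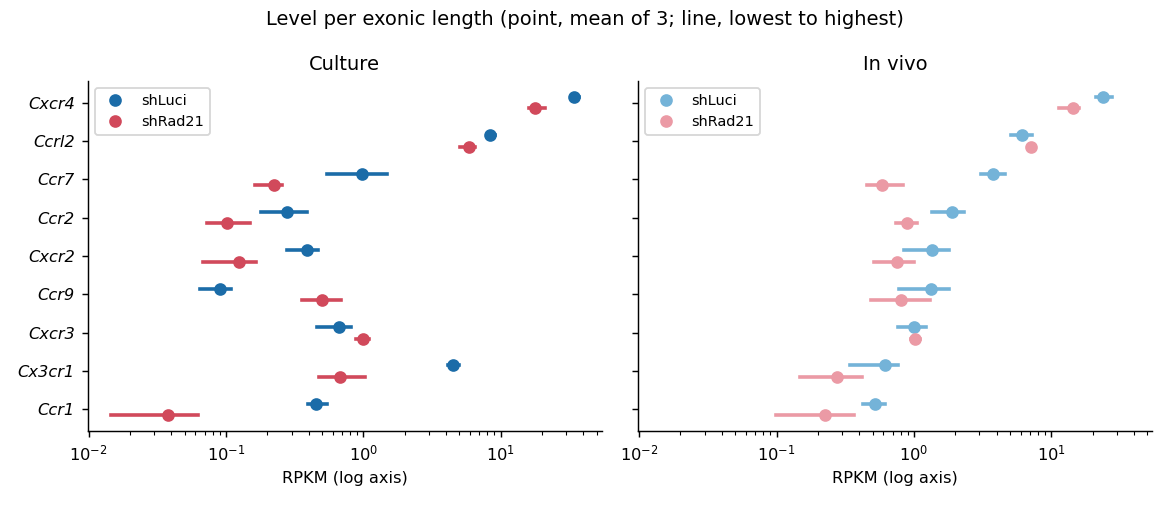
RPKM of the 9 receptor genes on a log axis in culture (left) and in vivo (right), with the mean of 3 libraries as a point and the lowest to the highest library as a line, for shLuci and shRad21. *Cxcr4* and *Ccrl2* lead in all 4 groups, whereas *Cx3cr1* follows them in shLuci cells in culture (4.48 RPKM) but is among the lowest in vivo (0.618 RPKM).

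After knockdown, the order changed below *Ccrl2*. *Cxcr3* followed it in both settings, with 0.9997 RPKM in culture and 1.02 RPKM in vivo, and overlapped there with *Cx3cr1* (0.678 RPKM) and *Ccr2* (0.898 RPKM), respectively. *Ccr7* was at 0.222 RPKM in culture and 0.583 RPKM in vivo, and *Ccr1* was the lowest in both settings (0.0377 and 0.225 RPKM).

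In culture, 7 of the 9 receptor genes were lower and 1 was higher in shRad21 than in shLuci cells, and *Cxcr3* did not pass the test. Genes were called at an adjusted p under 0.05 (quasi-likelihood test of edgeR, Benjamini-Hochberg adjustment over all genes tested), and 8.06% of 15543 genes were lower and 6.18% higher. The median log2 fold change was -1.46 over the 9 receptor genes and -0.0039 over all genes tested. At an unadjusted p under 0.05 in edgeR, 7 were lower and 2, *Ccr9* and *Cxcr3*, were higher, against 14.3% and 12.7% of all genes. In vivo, 3 of the 9 genes were lower, 0 were higher, and 6 did not pass, where 5.32% of 15938 genes were lower and 5.65% higher. At an unadjusted p under 0.05 in edgeR, 6 were lower and 0 higher, against 11.7% and 12.4% of all genes, and DESeq2 also called 3 lower and 0 higher. The corresponding medians were -0.84 and -0.0019. All 9 genes passed the filter on low counts in both experiments. In culture, *Ccr1* passed it through the shLuci libraries only, as 0 of the 3 shRad21 libraries reached the cutoff of 0.454 CPM, which leaves 6 of 8 lower without it. *Cxcr2* reached this cutoff in 1 and *Ccr7* in 2 of the 3 shRad21 libraries, and the cutoff in vivo of 0.487 CPM was reached by *Ccr1* in 2 of the 3 shRad21 libraries. In culture, all 9 genes had CPM that were separate between the groups, 7 lower and 2 higher, against 16.2% and 15.3% of all genes tested. In vivo, 4 genes were lower without overlap and 0 higher, against 15.7% and 13.4%.

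**Figure D2:**
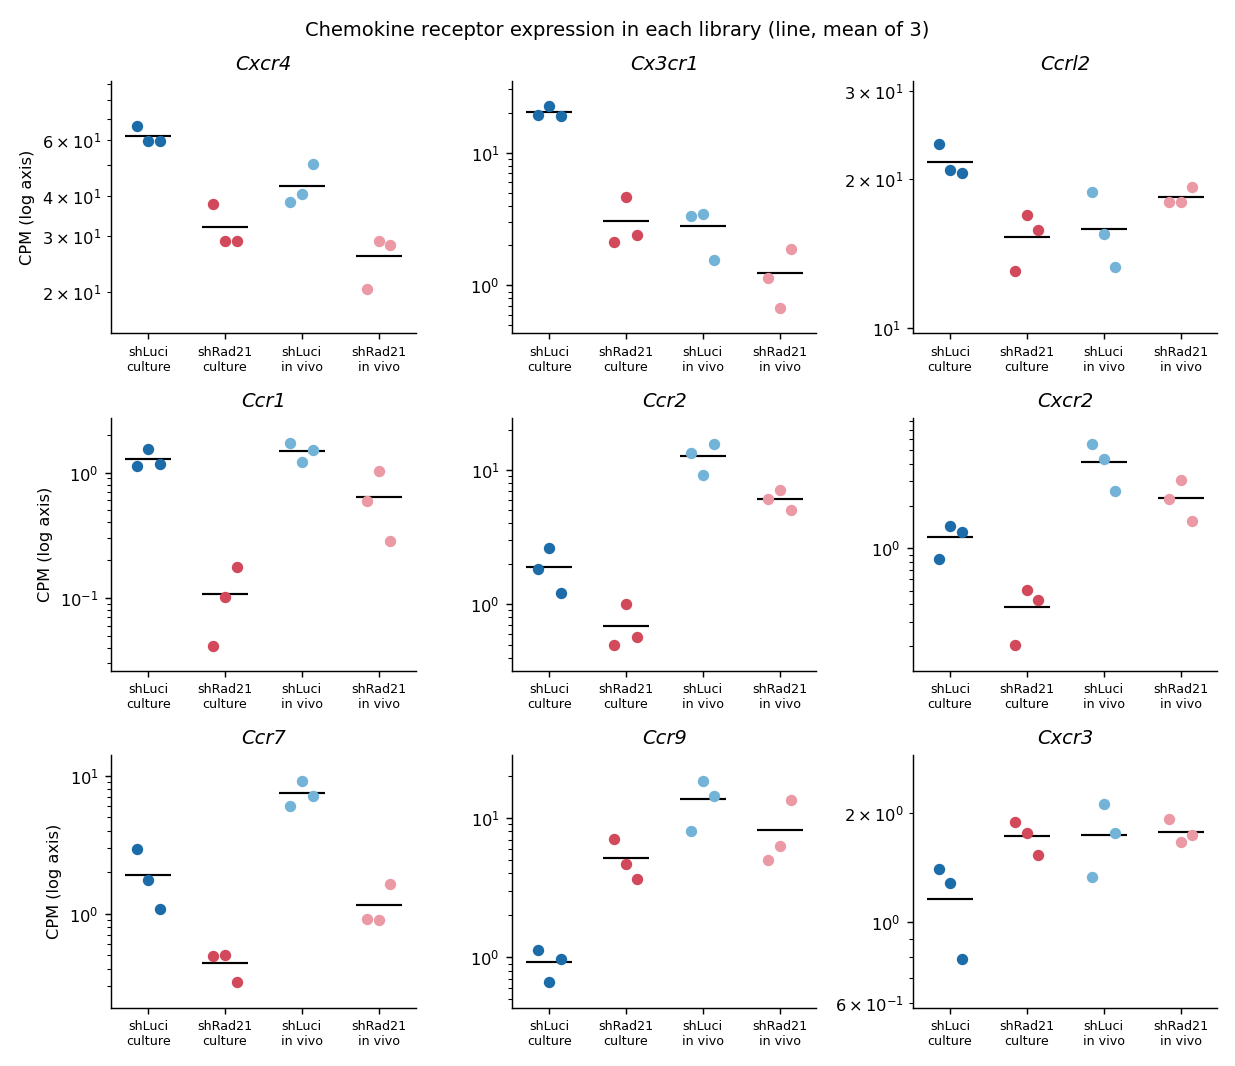
CPM of each receptor gene (log axis, with its own range in each panel) in the 12 libraries, with points for libraries and a line for the mean of 3. In culture, shLuci and shRad21 libraries are separate in all 9 panels, whereas in vivo they overlap for *Cx3cr1*, *Ccrl2*, *Cxcr2*, *Ccr9*, and *Cxcr3*.

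*Cxcr4* fell in both settings. In culture, its level was 66.6, 59.6, and 59.6 CPM in the shLuci libraries and 37.9, 29.0, and 28.9 CPM in the shRad21 libraries. In vivo, the values were 38.4, 40.6, and 50.4 CPM in shLuci and 20.5, 29.0, and 28.2 CPM in shRad21 libraries. Each shRad21 library was thus below each shLuci library of its experiment. The log2 fold change was -0.95 (SE 0.116, adjusted p = 0.000458, edgeR) in culture and -0.72 (SE 0.155, adjusted p = 0.016, edgeR) in vivo, or 1.93-fold and 1.65-fold lower. The call in vivo was lost without the third shLuci library (log2 fold change -0.60, adjusted p = 0.0533, edgeR). The effects differed by -0.22 on the log2 scale (adjusted p = 0.659 for this interaction, edgeR). *Cxcl12*, the ligand of Cxcr4 that stromal cells make, had 0 counts in all 6 culture libraries. In vivo, it had 17, 57, and 30 counts in shLuci and 5, 6, and 10 counts in shRad21 libraries and was lower after knockdown (log2 fold change -2.32, SE 0.578, adjusted p = 0.0306, edgeR).

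*Ccr7* also fell in both settings. Its level in culture was 2.95, 1.74, and 1.07 CPM in shLuci and 0.494, 0.505, and 0.320 CPM in shRad21 libraries. In vivo, it was 6.05, 9.16, and 7.16 CPM in shLuci and 0.915, 0.898, and 1.65 CPM in shRad21 libraries. The groups did not overlap in either setting, and the gap was wider in vivo, where the lowest shLuci library was at 6.05 CPM and the highest shRad21 library at 1.65 CPM. The log2 fold change was -2.08 (SE 0.408, adjusted p = 0.00615, edgeR) in culture and -2.68 (SE 0.296, adjusted p = 0.000508, edgeR) in vivo, or 4.24-fold and 6.39-fold lower. With any library omitted, both calls held. The difference between the effects, a log2 change of 0.59, did not pass (adjusted p = 0.658, edgeR). *Ccl19* and *Ccl21a*, the genes of the Ccr7 ligands, which lymphoid stroma makes, had 0 counts in every library.

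*Ccr2*, the receptor that brings monocytes out of the marrow, was lower after knockdown in both settings. In culture, its counts were small, with 26, 51, and 26 reads (1.82, 2.62, and 1.21 CPM) in shLuci and 12, 20, and 16 reads (0.494, 1.01, and 0.569 CPM) in shRad21 libraries. In vivo, it was at 13.3, 9.11, and 15.7 CPM in shLuci and 6.04, 7.14, and 5.03 CPM in shRad21 libraries. The groups did not overlap in either setting. Its log2 fold change was -1.46 (SE 0.367, adjusted p = 0.0219, edgeR) in culture and -1.05 (SE 0.216, adjusted p = 0.013, edgeR) in vivo. The call in culture was lost without the second shLuci library (-1.13, adjusted p = 0.117, edgeR) and without the first or the third shRad21 library (-1.27 and -1.33, adjusted p = 0.0781 and 0.0869, edgeR), and that in vivo without the third shRad21 library (-0.93, adjusted p = 0.067, edgeR).

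*Cx3cr1*, the fractalkine receptor of monocytes and their progenitors, showed the strongest evidence of a fall among the 9 genes in culture. Its level was 19.4, 22.4, and 18.8 CPM in shLuci and 2.14, 4.64, and 2.38 CPM in shRad21 libraries. The lowest shLuci library was thus far above the highest shRad21 library. The log2 fold change was -2.74 (SE 0.243, adjusted p = 6.42e-05, edgeR), or 6.69-fold lower. In vivo, *Cx3cr1* was already low, at 3.33, 3.47, and 1.55 CPM in shLuci and 1.14, 0.673, and 1.88 CPM in shRad21 libraries, and the groups overlapped. The log2 fold change there was -1.16 (SE 0.431, adjusted p = 0.13, edgeR), which passed only when no filter on low counts was used (-1.14, adjusted p = 0.0221, edgeR). The difference between the effects, -1.56 on the log2 scale, did not pass (adjusted p = 0.108, edgeR), but did with DESeq2 (-1.54, adjusted p = 0.029), without the filter (-1.59, adjusted p = 0.000399, edgeR), and without the second shRad21 culture library (-1.98, adjusted p = 0.0486, edgeR). Its ligand gene *Cx3cl1* fell in culture (log2 fold change -1.04, adjusted p = 0.00309, edgeR) and stood at 0.9957 in vivo (adjusted p = 0.0743, edgeR), and here the difference between the effects passed (-2.02, adjusted p = 0.00725, edgeR).

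*Ccr1* and *Cxcr2*, receptors of inflammatory chemokines on myeloid cells, fell in culture. *Ccr1* had 16, 30, and 25 counts in shLuci (1.12, 1.54, and 1.17 CPM) and 1, 2, and 5 counts in shRad21 libraries (0.0412, 0.101, and 0.178 CPM). Of these shRad21 libraries, 2 were below the limit of 3 counts, so the log2 fold change of -3.46 (SE 0.435, adjusted p = 0.000539, edgeR) rests on 8 counts in that group. It was -4.10 without the third shRad21 library, which held 5 of them, and -3.07 without the first. *Cxcr2* was at 0.842, 1.44, and 1.31 CPM in shLuci and 0.206, 0.505, and 0.427 CPM in shRad21 libraries, a log2 fold change of -1.68 (SE 0.372, adjusted p = 0.0118, edgeR). Neither gene overlapped between the groups in culture. The *Cxcr2* call was lost without the second shLuci library (-1.53, adjusted p = 0.0622, edgeR). In vivo, *Ccr1* was at 1.73, 1.21, and 1.502 CPM in shLuci and 0.595, 1.03, and 0.282 CPM in shRad21 libraries, again without overlap. *Cxcr2* was at 5.51, 4.33, and 2.56 CPM and 2.24, 3.05, and 1.55 CPM, and its groups overlapped. Neither passed the test in vivo, with log2 fold changes of -1.19 for *Ccr1* (SE 0.459, adjusted p = 0.145, edgeR) and -0.84 for *Cxcr2* (SE 0.341, adjusted p = 0.166, edgeR). The *Ccr1* effects differed by -2.27 between settings (adjusted p = 0.0857, edgeR), which passed without the filter (-2.28, adjusted p = 0.0411, edgeR) or without the third shRad21 library in vivo (-2.62, adjusted p = 0.045, edgeR).

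*Ccr9* was the only gene of the 9 called higher in either setting. In culture, it had 16, 13, and 21 counts (1.12, 0.667, and 0.980 CPM) in shLuci and 171, 93, and 103 counts (7.04, 4.70, and 3.66 CPM) in shRad21 libraries. Each shRad21 library was at 3.66 CPM or more, whereas no shLuci library exceeded 1.12 CPM. This was a log2 fold change of 2.49 (SE 0.308, adjusted p = 0.000471, edgeR), or 5.63-fold higher, and the call held with any library omitted. Among the in vivo libraries, *Ccr9* was at 8.05, 18.4, and 14.3 CPM in shLuci and 4.99, 6.33, and 13.4 CPM in shRad21 libraries. These groups overlapped, and the log2 fold change was -0.71 (SE 0.380, adjusted p = 0.302, edgeR), called lower only without the filter on low counts (-0.69, adjusted p = 0.0046, edgeR). The effect in culture exceeded that in vivo by 3.21 on the log2 scale (adjusted p = 0.005, edgeR), 1 of 2 differences that passed among the 9 genes. *Ccl25*, the gene of its ligand, did not pass in culture (log2 fold change -0.39, adjusted p = 0.181, edgeR) or in vivo (0.29, adjusted p = 0.457, edgeR).

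*Ccrl2*, the atypical receptor, was lower in culture, where it was at 23.5, 20.8, and 20.5 CPM in shLuci and 13.1, 16.9, and 15.8 CPM in shRad21 libraries. The log2 fold change of -0.50 (SE 0.125, adjusted p = 0.0226, edgeR) was the smallest of the 8 that passed. It was lost without the first or the second shLuci library (adjusted p = 0.0656 and 0.0616, edgeR) and without the first or the third shRad21 library (adjusted p = 0.0959 and 0.0652, edgeR). In vivo, the values were 18.8, 15.4, and 13.3 CPM in shLuci and 17.9, 18.0, and 19.3 CPM in shRad21 libraries, which overlapped (log2 fold change 0.23, SE 0.142, adjusted p = 0.37, edgeR). The difference between the effects was -0.72 (adjusted p = 0.0494, edgeR), close to the threshold. It was lost when replicate numbers were added as a block (-0.73, adjusted p = 0.0635, edgeR) and when any of the libraries but the first shLuci library in vivo was left out (adjusted p between 0.0585 and 0.13, edgeR). Over all genes, 3.03% of 17050 had a lower and 1.64% a higher effect in culture than in vivo, and 7 of the 9 receptor genes did not pass this test.

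*Cxcr3* was at 1.40, 1.28, and 0.793 CPM in shLuci and 1.90, 1.77, and 1.53 CPM in shRad21 libraries in culture. Although the groups did not overlap, the log2 fold change of 0.60 (SE 0.271) did not pass the test over all genes (adjusted p = 0.179, edgeR). In vivo, it was at 1.33, 2.11, and 1.77 CPM in shLuci and 1.92, 1.66, and 1.74 CPM in shRad21 libraries, with overlap and a log2 fold change of 0.045 (SE 0.286, adjusted p = 0.95, edgeR).

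**Figure D3:**
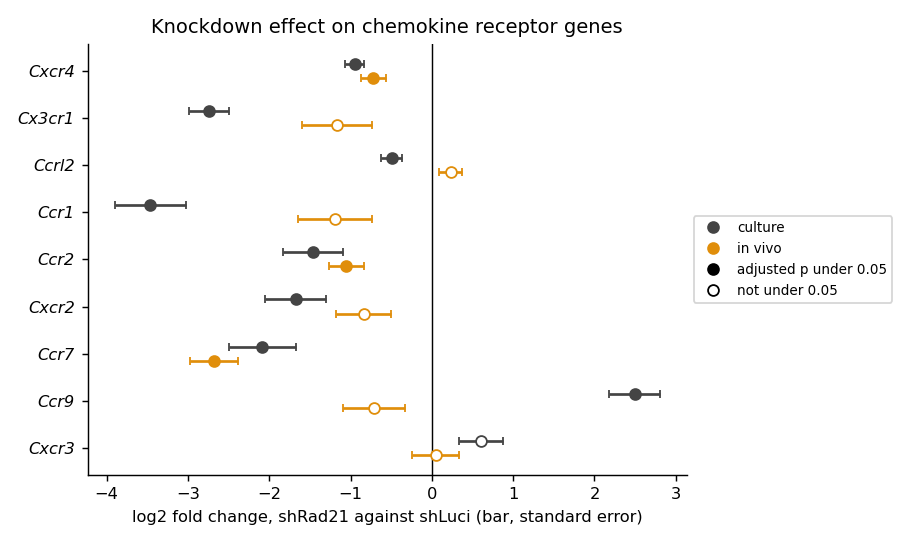
Log2 fold change of shRad21 against shLuci for each receptor gene in culture and in vivo, with the standard error as a bar and filled points for an adjusted p under 0.05. In culture 7 genes lie below 0 and pass, and *Ccr9* is at 2.49, whereas in vivo *Ccr2*, *Ccr7*, and *Cxcr4* are the 3 that pass.

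Control cells differed in receptor expression between culture and in vivo. Compared with shLuci cells in vivo, shLuci cells in culture were lower for *Ccr9* (log2 fold change -3.89, adjusted p = 1.51e-06, edgeR), *Ccr2* (-2.76, adjusted p = 8.69e-07), *Ccr7* (-1.99, adjusted p = 8.51e-05), and *Cxcr2* (-1.77, adjusted p = 0.000447). They were higher for *Cx3cr1* (2.86, adjusted p = 2.74e-06, edgeR), *Cxcr4* (0.52, adjusted p = 0.00416), and *Ccrl2* (0.45, adjusted p = 0.00899). Of the 9 genes, 4 were thus lower and 3 higher, but 37.1% of all 17050 genes tested were lower and 37.1% were higher, so such calls were common. *Ccr1* (-0.21, adjusted p = 0.645, edgeR) and *Cxcr3* (-0.60, adjusted p = 0.074, edgeR) did not pass. Both the *Cxcr3* call and that of *Ccrl2* depended on the scaling. *Cxcr3* passed with upper-quartile scaling (adjusted p = 0.0359, edgeR) and with library size only (adjusted p = 0.0259, edgeR), and *Ccrl2* did not with library size only (0.27, adjusted p = 0.0841, edgeR), and under these scalings the median over all genes moved by -0.12 and -0.18 on the log2 scale. *Cxcr3* also passed with at least 10 counts in every library (adjusted p = 0.0403, edgeR) and without the first shLuci library in vivo (adjusted p = 0.0364, edgeR). Kit, gate, and lane differ fully with the setting here, so no value within a batch can be given.

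The genes of receptor ligands were counted as a list of 21. Of the 11 tested in culture, 9 were lower after knockdown and 0 higher, with a median log2 fold change of -2.20. At an unadjusted p under 0.05, 10 were lower and 1 higher (edgeR). Of all genes tested in culture, 8.06% were lower and 6.18% higher, and 14.3% and 12.7% at the unadjusted threshold. Their median log2 fold change was -0.0039. *Ccl6* and *Cxcl3* passed the filter on low counts through the shLuci libraries only, and without them 7 of 9 were lower. With replicate numbers as a block, 9 ligand genes were lower and 1 was higher, where 3186 of all 15543 genes passed, against 2213 without the block. The most negative fold changes were those of *Ccl6* (-3.61, adjusted p = 0.000596, edgeR) and *Ccl5* (-3.58, adjusted p = 1.9e-05), both ligands of Ccr1, which itself fell. *Ccl6* had 14, 33, and 23 counts in shLuci and 1, 3, and 3 counts in shRad21 libraries. *Ccl9* was at 391, 393, and 237 CPM in shLuci and 38.9, 77.4, and 56.2 CPM in shRad21 libraries (-2.56, adjusted p = 0.000107, edgeR). *Ccl3* also fell (-2.20, adjusted p = 1.5e-05, edgeR), as did the Cxcr2 ligand genes *Cxcl2* (-1.98, adjusted p = 0.00725), *Cxcl3* (-2.94, adjusted p = 0.000691), and *Ppbp* (-0.80, adjusted p = 0.0208) and the Cxcr3 ligand gene *Cxcl10* (-2.34, adjusted p = 0.000848). The Ccr2 ligand gene *Ccl2*, at 0.561, 3.69, and 2.57 CPM in shLuci and 2.22, 5.96, and 14.4 CPM in shRad21 libraries, did not pass (1.69, adjusted p = 0.102, edgeR). Its groups overlapped, but it was higher in the shRad21 library of each same-numbered pair and passed with the replicate number as a block (1.68, adjusted p = 0.00014, edgeR).

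In vivo, 3 of the 11 ligand genes tested were lower and 0 higher, with a median of -0.92. At an unadjusted p under 0.05, 6 were lower and 1 higher (edgeR). Of all genes tested in vivo, 5.32% were lower and 5.65% higher, and 11.7% and 12.4% at the unadjusted threshold. Their median was -0.0019. The 3 lower ligand genes were *Ccl9* (-1.49, adjusted p = 0.0097, edgeR), *Ccl6* (-0.93, adjusted p = 0.0352, edgeR), and *Cxcl12*. *Ccl9* was at 177, 118, and 94.0 CPM in shLuci and 34.5, 67.7, and 34.0 CPM in shRad21 libraries. The effects on *Ccl3*, *Ccl5*, *Ccl6*, *Cxcl2*, and *Cx3cl1* were lower in culture than in vivo by the test of the difference (adjusted p = 0.0392, 0.00867, 0.00832, 0.00326, and 0.00725, edgeR). For *Cx3cl1* and *Cxcl2*, the values in vivo were higher in shRad21 than in shLuci cells. *Cxcl2*, which had too few counts for the test within the in vivo experiment, had 2, 1, and 2 counts in shLuci and 13, 11, and 9 counts in shRad21 libraries there.

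**Figure D4:**
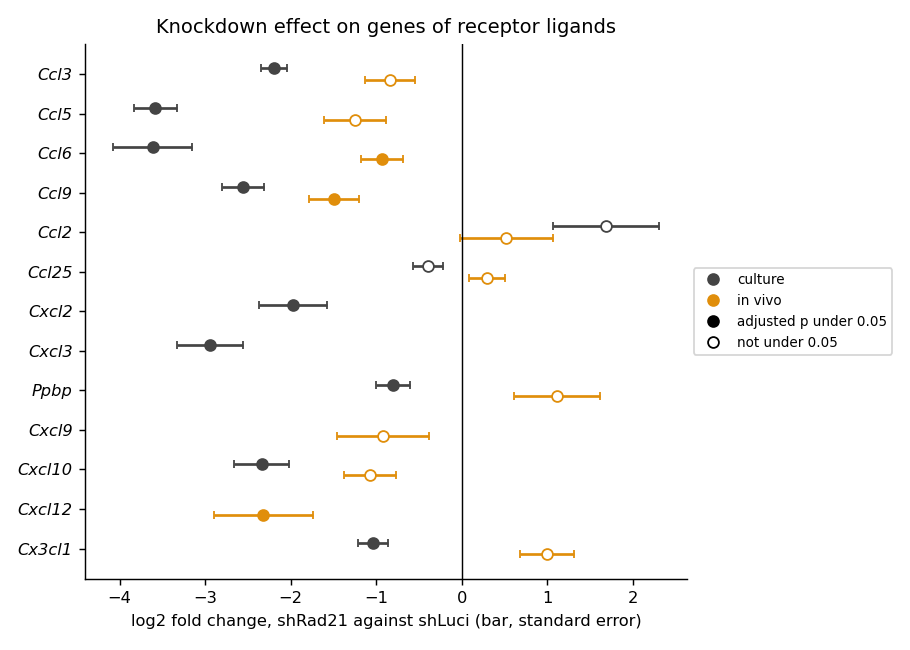
Log2 fold change of shRad21 against shLuci for the ligand genes tested in culture or in vivo, with the standard error as a bar and filled points for an adjusted p under 0.05. In culture 9 genes lie below 0 and pass, and in vivo *Ccl6*, *Ccl9*, and *Cxcl12* do.

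Of the 16 other chemokine receptor genes, 5 were tested in culture and 9 in vivo. The atypical receptor gene *Ackr1*, which binds many chemokines without signaling, was higher in both settings. Of its exonic bases, 25.7% are shared with *Cadm3*. It was at 0.842, 0.667, and 1.21 CPM in shLuci and 3.67, 3.84, and 4.16 CPM in shRad21 libraries in culture (log2 fold change 2.08, adjusted p = 0.000379, edgeR). In vivo, it was at 1.51, 1.91, and 0.707 CPM and 6.91, 4.22, and 4.84 CPM (1.97, adjusted p = 0.00697, edgeR). *Ccr10* fell in culture (-2.47, adjusted p = 0.00485, edgeR), with 35, 41, and 17 counts in shLuci and 9, 7, and 6 counts in shRad21 libraries, and passed the filter through the shLuci libraries only. *Cxcr1*, a close relative of *Cxcr2* that lies near it, fell in vivo (-2.23, adjusted p = 0.0392, edgeR), with 32, 23, and 22 counts in shLuci and 2, 3, and 11 counts in shRad21 libraries. No other gene of this list passed, and its median log2 fold change was -0.19 in culture and -1.02 in vivo. Whether related receptor genes shared reads was not tested.

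Of 27 genes of signaling below chemokine receptors, which include G protein subunits, kinases, arrestins, and Rgs proteins, 2 were lower and 5 higher in culture, and 4 lower and 3 higher of 26 tested in vivo. These shares lie beside 8.06% lower and 6.18% higher of all genes in culture and 5.32% and 5.65% in vivo. With replicate numbers as a block, 3 were lower and 8 higher in culture, where *Grk5* (0.53, adjusted p = 0.0113), *Pik3cg* (0.25, adjusted p = 0.0357), *Dock2* (0.25, adjusted p = 0.0377), and *Rgs1* were added (edgeR). Over all genes in culture, 3186 of 15543 passed with the block and 2213 without it. The medians of the signaling genes without the block were 0.07 and -0.04. *Rgs18*, a brake on G protein signaling, rose in both settings (0.68, adjusted p = 0.00183, and 0.45, adjusted p = 0.00621, edgeR), as did *Elmo1*, which acts with Dock2 to activate Rac (0.49 and 0.24, adjusted p = 0.00416 and 0.0359, edgeR). *Dpp4*, whose protein trims Cxcl12 and other chemokines, fell in both (-0.82 and -0.92, adjusted p = 0.0141 and 0.000498, edgeR). It was at 13.8, 17.9, and 11.6 CPM in shLuci and 9.72, 7.98, and 6.65 CPM in shRad21 libraries in culture, and at 120, 103, and 111 CPM and 49.2, 61.2, and 63.3 CPM in vivo. The groups did not overlap in either setting. *Rgs1* rose in vivo (0.62, adjusted p = 0.00144, edgeR) and stood at -0.64 in culture (adjusted p = 0.0792, edgeR), where it was lower in each same-numbered pair and passed with the block (-0.65, adjusted p = 2.2e-05, edgeR), and the difference between the effects passed (-1.25, adjusted p = 0.0166, edgeR).

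Protein-coding genes that start within 500 kb of a receptor gene were counted as neighbors. Of all genes tested, 8.06% were lower and 6.18% higher in culture, and 5.32% and 5.65% in vivo. Of the 9 neighbors of *Ccr9* tested in culture, 3 were lower, namely *Ccr1*, *Ccr2*, and *Cdcp1* (-0.65, adjusted p = 0.0246, edgeR), and 1 was higher, *Limd1* (0.27, adjusted p = 0.0415, edgeR). *Ccr1* and *Ccr2* are themselves receptor genes of this report and were already counted as lower above. *Cdcp1* was higher in vivo (1.13, adjusted p = 0.00702, edgeR). Near *Cx3cr1*, 2 of 9 neighbors passed in culture, *Scn11a* higher (2.89, adjusted p = 3e-04, edgeR) and *Entpd3* lower (-0.77, adjusted p = 0.0403, edgeR). Near *Cxcr2*, 2 of 14 passed in culture, *Rufy4* lower (-2.10, adjusted p = 0.000107, edgeR) and *Ctdsp1* higher (0.30, adjusted p = 0.0197, edgeR). Of the 14 neighbors of *Ccr7* tested in culture, 1 was lower and 1 higher, and of 16 in vivo, 3 were lower, among them *Top2a* (-0.60, adjusted p = 0.00375, edgeR). Near *Ccr1*, 1 of 7 was lower and 2 were higher in culture, and near *Ccr2*, 1 of 6 was lower and 1 higher. These include receptor genes of this report. Also in culture, 1 of 14 near *Cxcr3* was lower, and 0 of 10 near *Ccrl2* and 0 of 5 near *Cxcr4* passed. In vivo, 0 passed near *Ccr2*, *Cx3cr1*, *Cxcr3*, and *Cxcr4*, and 1 of 11 near *Ccr1* was lower. Near each of *Ccr9*, *Ccrl2*, and *Cxcr2*, 1 was lower and 1 higher in vivo.

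Markers of other blood cells moved with several of these genes, and their part in the results was not tested. In bulk RNA, fewer cells of a type and less RNA per cell cannot be told apart. The summed level of 8 monocyte and macrophage markers was between 46.2 and 66.4 CPM in shLuci and between 18.6 and 21.2 CPM in shRad21 libraries in culture, and between 111 and 147 CPM and between 59.1 and 75.7 CPM in vivo. *C1qa* was at 0 in all culture libraries. *Csf1r*, the receptor of the monocyte growth factor, fell in both settings (-1.82, adjusted p = 0.0003, and -1.28, adjusted p = 0.0096, edgeR), as did *Cd68* (-1.16 and -1.67, adjusted p = 0.000176 and 0.000773). All 3 monocyte markers tested in culture were lower, and 3 of 8 in vivo, beside 8.06% and 5.32% of all genes tested. The 5 dendritic cell markers summed to between 9.71 and 16.0 CPM in shLuci and 3.38 and 4.85 CPM in shRad21 libraries in culture, and to 10.5 to 11.8 CPM and 4.94 to 6.73 CPM in vivo, with *Itgax* lower in both settings and *Zbtb46* in culture. In culture, *Itgax* passed the filter through the shLuci libraries only. The dendritic cell sums did not overlap between the groups of either setting. Of single genes tested, 16.2% in culture and 15.7% in vivo were lower without overlap. Most of the sum in culture was *Zbtb46*, at 13.5, 10.1, and 7.75 CPM in shLuci libraries. Of the 4 markers tested in vivo, 3 had negative fold changes. The other, *Clec9a*, was at 1.47, 0.604, and 1.86 CPM in shLuci and 2.10, 3.01, and 1.08 CPM in shRad21 libraries and did not pass. The LSK gate in vivo leaves out cells with lineage markers, which include those of mature T cells, B cells, and myeloid cells. The culture gate, GFP+CD48-Sca-1+, names no lineage marker. RNA of neutrophil markers was still counted in vivo, with *S100a9* between 19.3 and 60.8 CPM, and whether mature cells were present was not tested.

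The 6 T cell markers summed to between 16.5 and 18.1 CPM in shLuci and 13.4 and 15.9 CPM in shRad21 libraries in culture, where *Cd8a* was at 0, and to 74.3 to 92.7 CPM and 27.7 to 30.5 CPM in vivo. Most of the sum was *Lck*, which fell in vivo (-1.47, adjusted p = 3.74e-05, edgeR). *Cd4* did not pass in vivo, and *Cd3d*, *Cd3e*, *Cd3g*, and *Cd8a* had at most 7 counts in any library there and were not tested. The 7 neutrophil markers summed to at most 3.23 CPM in culture, and in vivo to between 140 and 256 CPM in shLuci and 85.8 and 264 CPM in shRad21 libraries, and 0 of them passed in either setting (edgeR, with 1 of 6 at an unadjusted p under 0.05 in vivo and 0 of 1 in culture). Of the NK cell markers, 1 of 1 tested was lower in culture and, in vivo, 1 was lower and 1 higher of 3, and of the B cell markers, 1 of 2 and 3 of 5 were lower. In vivo, *Pax5* passed the filter on low counts through the shLuci libraries only, and without it 2 of 4 B cell markers were lower. The counts in this paragraph lie beside 8.06% lower and 6.18% higher of all genes in culture and 5.32% and 5.65% in vivo. At the unadjusted threshold, these shares were 14.3% and 12.7% in culture and 11.7% and 12.4% in vivo. Among mast cell and basophil markers, 1 was higher in each setting (*Cpa3*), and *Ms4a2* passed in culture with the block (2.15, adjusted p = 0.00199, edgeR). *Ms4a2* was at 0.631, 1.13, and 0.373 CPM in shLuci and 0.618, 2.57, and 6.76 CPM in shRad21 libraries there, with no rise in the first pair. In vivo, it was at 5.07, 4.93, and 6.85 CPM and 1.24, 4.62, and 2.45 CPM and did not pass. For eosinophils, 1 of 2 was lower in vivo. Among the other lists, megakaryocyte markers were 2 lower and 2 higher in culture and 3 higher in vivo, and erythroid markers 0 of 2 in culture (1 at an unadjusted p under 0.05, edgeR) and 1 lower of 5 in vivo (edgeR). Of the 9 stem and progenitor markers, 2 were lower and 4 higher in culture and 3 lower and 4 higher in vivo. With the block, 3 were lower and 5 higher in culture, where *Ly6a* fell (-0.69, adjusted p = 0.000464, edgeR) and *Procr* rose (0.40, adjusted p = 0.00351, edgeR). Without the block, neither passed in culture. Over all genes in culture, 3186 of 15543 passed with the block and 2213 without it. In vivo, *Ly6a* was higher and passed, at 138, 137, and 163 CPM in shLuci and 181, 209, and 201 CPM in shRad21 libraries. *Slamf1*, a marker of stem cells, rose in culture (1.21, adjusted p = 0.000803, edgeR) and in vivo (2.05, adjusted p = 2.18e-05, edgeR). *Flt3*, a marker of multipotent and lymphoid progenitors, fell in both (-1.12, adjusted p = 0.00168, and -1.61, adjusted p = 2.48e-05, edgeR), as did *Kit* (-1.42, adjusted p = 1.53e-05, and -0.42, adjusted p = 0.00659, edgeR). Their part in the receptor results was not tested.

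Across the 12 libraries, the log2 CPM of *Cxcr2* followed that of *Ccr2* (Pearson's r = 0.932) and *Ccr1* (0.817), and *Cx3cr1* followed *Cxcr4* (0.784). *Ccr9* and *Cx3cr1* ran opposite (r = -0.79). The gene most like each receptor gene in pattern was *Ly6e* for *Ccr1* (r = 0.956), BC035044 for *Ccr2* (0.984), *Cyb561a3* for *Ccr7* (0.963), *Rpusd4* for *Ccr9* (0.953), *Orai2* for *Cxcr2* (0.980), *Bbs2* for *Cxcr3* (0.936), *Myof* for *Cxcr4* (0.956), *Gsta4* for *Cx3cr1* (0.968), and *Smox* for *Ccrl2* (0.882). These values describe libraries that share experiment, kit, and lane, and carry no test.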

How the data were processed

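The authors depleted the reads of rRNA with SortMeRNA, trimmed them with Prinseq, mapped them to GRCm38 with TopHat2 2.0.11, and counted them on genes with HTSeq 0.6.1 (versions from the submitters' processing notes). The authors deposited these counts as whole numbers, not normalized. The annotation release and the strand setting are not given in the sources used here. Of 46078 genes, 45229 were matched to GENCODE M21 by identifier.

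Counts were scaled with TMM and filtered with filterByExpr (minimum count 10 in 3 libraries, total of 15) in edgeR 4.0.16 (R 4.3.3, limma 3.58.1), and tested with its two-sided quasi-likelihood test within each experiment, or over all 12 libraries for control cells and the interaction. All tests were adjusted over all genes tested. The CPM shown were scaled over all 12 libraries. Alternatives were DESeq2 (version 1.42.0 here, 1.16.1 in the processing notes), other scalings and filters, 1 model of all libraries, the replicate number as a block, and the omission of each library. The steps were tested on simulated data. After subtraction of group means, same-numbered culture libraries correlated across genes with r between 0.149 and 0.189 and differently numbered ones between -0.212 and 0.0319, so the numbers, taken from the labels, were taken to pair these libraries. In vivo, the values were 0.0423 to 0.0561 and -0.0653 to 0.0192, and they were not. The values reported are from the fit without the block, and the blocked value stands beside a culture result whose call it changes. The block for the other lists was added after the data had been seen. Replicate libraries differed beyond sampling noise (chi-square over its degrees of freedom from 6.16 to 22.6). Promoters were searched and figures drawn in Python 3.11.15 with matplotlib 3.10.9, NumPy 2.4.6, and pandas 2.3.3.

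The 9 receptor genes and the lists of ligands, other receptors, signaling genes, and cell type markers were chosen with earlier results of these data known. All 9 were named, and from the lists only genes that passed in either knockdown comparison, or about which a statement is made. The most similar gene was the one with the largest Pearson's r of log2 CPM (prior count 1) among genes whose mean log2 CPM was 1 or more.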

Additional observations from a re-analysis of the deposited data

Results flagged for a closer look

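The knockdown effect on *Ccr9* differed between the settings by 3.21 on the log2 scale (adjusted p = 0.005, edgeR's quasi-likelihood test of the interaction), from 2.49 in culture to -0.71 in vivo, and over all alternatives this difference stayed between 2.91 and 3.74, with an adjusted p of at most 0.0232. All 3 shRad21 libraries were above the 3 shLuci libraries in culture, whereas the groups overlapped in vivo.

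The effect on *Ccrl2* differed by -0.72 (adjusted p = 0.0494, edgeR), from -0.50 in culture to 0.23 in vivo, and the adjusted p ranged from 0.0116 to 0.13 over the alternatives. It passed in 6 of 18 alternatives. The interaction compares 2 experiments with different kits, gates, and lanes, which cannot be told apart from the setting.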

How the results depend on the processing

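Of the 9 receptor genes, 8 passed in culture, 3 in vivo, 7 between control cells, and 2 in the interaction (edgeR). Requiring 10 counts in every library left 6 of them to test in culture, of which 5 passed. Without a filter, 5 passed in vivo and 4 in the interaction, where the replicate block left 1. With 1 library omitted, the numbers were 5 to 8 in culture (5 without the second shLuci library), 2 to 3 in vivo, and 1 to 2 in the interaction. Over all genes, 2213 passed in culture (1352 to 2817 with 1 library omitted, and 1352, 1378, and 1463 without the second shRad21, the second shLuci, and the third shRad21 library), 1749 in vivo (951 to 1562, 951 and 1140 without the third and the first shRad21 library, and 2829 without a filter), and 796 in the interaction (492 to 845, 1283 with DESeq2, and 1409 without a filter). With the block, 3186 genes passed in culture, and apart from the *Ccrl2* interaction it changed no other call of the 9 genes and 8 calls of the other lists in culture. Among the fold changes of the 9 genes in the 4 comparisons, that of *Cxcr3* in vivo turned its sign, to -0.12 without the first shLuci library and to -0.0090 without the first shRad21 library (-0.12 to 0.22 with 1 library omitted), and it passed in neither. The cause was not tested. Depth limited *Ccr1* most, with 8 counts in the shRad21 culture group.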
